A study of Mus musculus with 4 samples.

Results

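Wif1-positive fibroblasts of the mouse heart were described in 3 libraries of sorted cells read by droplet single-cell RNA sequencing. A cell was a member when it held at least 1 UMI (a counted RNA molecule) of Wif1 and at least 1 UMI of 2 or more of Comp, Fmod, Cytl1, Prg4 and Dkk3, so these genes chose the cells and are described below with no test. Of 26191 kept cells, 119 were members: 55 of 2786 in the tdTomato library, 32 of 10838 in the citrine library and 32 of 12567 in the PDGFRa library. They were set against the 25348 comparison cells of the same libraries, which had no Wif1 UMI and fewer than 2 of the mural cell markers Rgs5, Kcnj8, Vtn and Myh11. Closest to them were the 3841 companion-only cells, which are the comparison cells with at least 2 of the 5 companion genes.

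The cells came from C57BL/6 mice. In the Hic1 CreERT2 tdTomato line, tdTomato+ cells were sorted 7 days after ligation of the left anterior descending coronary artery (LAD), a model of myocardial infarction, for one library and from undamaged hearts for another, with 3 hearts pooled in each. CreERT2 is a Cre recombinase switched on by tamoxifen, so that tdTomato marks cells in which Hic1 was active at induction and their descendants. The citrine library held cells that carry a Hic1 citrine reporter, from 3 undamaged hearts. The PDGFRa library held H2BGFP+ cells of the strain B6.129S4-Pdgfra tm11(EGFP)Sor/J, in which the nuclear reporter sits in the Pdgfra gene, from 2 undamaged and 2 ligated hearts. Hearts of the last 2 libraries were told apart by hashtag antibodies and are numbered by hashtag, since the labels do not say which PDGFRa hashtag marks which condition. With 1 library per group, no level or share was tested between libraries. In 1 interaction fit across the citrine and PDGFRa hearts, given below, reporter, library and condition cannot be told apart.

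The libraries held 2853 to 13830 barcodes and 9885698 to 122716283 UMIs, and kept cells had median totals of 3453 UMIs in the tdTomato library, 8038.5 in the citrine library, 7729 in the PDGFRa library and 3668 in the ligated tdTomato library. Members held a median of 4263, 11130 and 7313.5 UMIs in the tdTomato, citrine and PDGFRa libraries, against 3630, 8096.5 and 7738.5 UMIs in comparison cells. Kept barcodes shared by pairs of libraries numbered at most 35, and no member barcode was a member in another library. No doublet caller was run.

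Wif1 (Wnt inhibitory factor 1) is a secreted protein that binds Wnt ligands outside the cell and keeps them from their Frizzled and LRP receptors. Where Wnt ligands do reach the receptors, beta-catenin builds up and, with TCF/LEF factors, turns on targets such as Axin2, Nkd1 and Tnfrsf19, some of which damp the pathway in turn. Comp and Fmod organise collagen fibrils in cartilage and tendon, Prg4 (lubricin) lubricates joint surfaces, Cytl1 is a secreted protein made in cartilage and Dkk3 is a secreted glycoprotein of the Dickkopf family. In the heart these matrix genes are best known from valves, tendon-like attachments and scar.

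Promoter sequences are shown for the defining gene and for 2 of the genes with the largest differences described below, to show where letters bound by TCF/LEF or other factors lie. They come from RefSeq (GRCm38.p6) and run from 250 bases before to 50 bases after the start of transcription, 5′ to 3′ on the gene's strand. Capitals mark matches on either strand, none of which overlap. The letters searched for TCF/LEF factors were CTTTGA. For SOX factors they were AACAAT, for GATA factors they were AGATAA, for the E-box they were CATCTG, and for the TATA box they were TATAAA. Wif1 is at chr10:121033754-121034053 on the plus strand, Pdzrn4 at chr15:92396560-92396859 on the plus strand and Ucma at chr2:4975872-4976171 on the plus strand.
Wif1: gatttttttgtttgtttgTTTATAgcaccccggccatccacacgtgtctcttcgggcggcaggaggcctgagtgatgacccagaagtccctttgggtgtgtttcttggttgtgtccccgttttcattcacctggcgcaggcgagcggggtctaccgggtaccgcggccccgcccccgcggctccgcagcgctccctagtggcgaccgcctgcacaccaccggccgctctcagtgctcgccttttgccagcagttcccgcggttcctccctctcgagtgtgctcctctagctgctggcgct
Pdzrn4: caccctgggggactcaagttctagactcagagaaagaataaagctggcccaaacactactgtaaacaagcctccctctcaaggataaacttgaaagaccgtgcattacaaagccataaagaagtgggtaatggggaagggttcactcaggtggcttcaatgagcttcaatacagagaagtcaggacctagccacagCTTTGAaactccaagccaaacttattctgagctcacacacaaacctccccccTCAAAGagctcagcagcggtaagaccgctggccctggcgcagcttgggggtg
Ucma: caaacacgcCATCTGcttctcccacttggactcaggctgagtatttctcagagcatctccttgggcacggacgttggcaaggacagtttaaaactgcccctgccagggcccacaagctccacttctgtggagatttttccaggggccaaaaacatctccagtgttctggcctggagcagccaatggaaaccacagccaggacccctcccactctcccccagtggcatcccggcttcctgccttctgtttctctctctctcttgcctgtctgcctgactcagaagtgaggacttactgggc
Pdzrn4 held the TCF/LEF letters 54 and 2 bases before its start, Ucma an E-box 241 bases before its start, and Wif1 none of the letters of TCF/LEF, SOX, GATA or the E-box. Of 31 genes looked up (the 6 genes that define the members and the 25 named against comparison cells), 18 had a promoter, and 2 of these 18 held the TCF/LEF letters, against 16.2% of all 27025 promoters. The SOX letters were in 0 of the 18, against 10.9% of all promoters, the GATA letters in 1, against 11.4%, the E-box in 2, against 17.2%, and the TATA box in 3, against 14.2%.

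Members were a small share of every sort. They made up 0 of 4263 kept cells in the ligated tdTomato library, with an exact Clopper-Pearson 95% upper limit of 0.0865% (a floor of 3 counts would allow up to 0.0704%), against 1.97% of the undamaged tdTomato library (exact Clopper-Pearson 95% interval 1.49% to 2.56%). In the citrine library the share was 0.295% (0.202% to 0.417%) and in the PDGFRa library 0.255% (0.174% to 0.359%). Intervals and floors cover counting error only. With every cell thinned to 2000 UMIs, which left out shallower cells, the shares were 0% of 3766 cells in the ligated tdTomato library, against 1.68% of 2367 cells in the undamaged one, 0.0980% of 10609 citrine cells and 0.116% of 12431 PDGFRa cells.

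Hearts differed in how many members they gave. Citrine hearts 1, 2 and 3 held 10, 6 and 11 members, or 0.443%, 0.188% and 0.360% of their kept cells, with intervals that overlap (0.213% to 0.813%, 0.0690% to 0.408% and 0.180% to 0.643%). PDGFRa hearts 1, 2, 3 and 4 held 2, 2, 22 and 5 members, or 0.0586%, 0.0618%, 0.943% and 0.210%. The interval of PDGFRa heart 3 (0.592% to 1.42%) lay above those of hearts 1, 2 and 4, of which the highest bound was 0.489%. Another 5 citrine and 1 PDGFRa members carried no single hashtag.

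**Figure D1:**
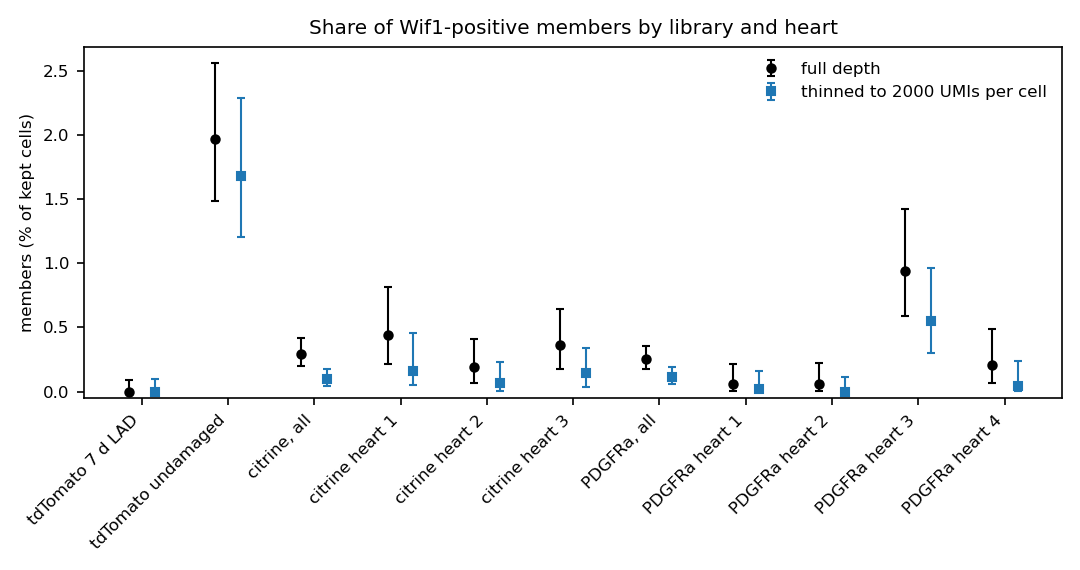
Members as a percentage of kept cells (vertical axis) in the 4 libraries and the 7 hashed hearts, with exact 95% intervals, at full depth (black) and after thinning each cell to 2000 UMIs (blue). The tdTomato library of ligated hearts sits at 0 and that of undamaged hearts at 1.97%, and PDGFRa heart 3 stands above the other 3 PDGFRa hearts.

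Wif1 UMIs outside the members show how far the defining gene reached. Wif1 was seen in 0 cells of the ligated tdTomato library and in 71 cells of the undamaged tdTomato library, 43 citrine cells and 44 PDGFRa cells. Among cells with at least 2 mural markers, which should lack the gene, it was seen in 0 of 1226 cells in the ligated tdTomato library, 1 of 350 in the undamaged one, 4 of 289 citrine cells (1.38%, exact interval 0.378% to 3.51%) and 0 of 51 PDGFRa cells. The median total of these cells was 1886.5 UMIs in the undamaged tdTomato library and 4246.0 UMIs in the citrine library. Of the 4 citrine cells, 3 were themselves members, 1 each with 1, 2 to 4, and 5 or more Wif1 UMIs. The interval includes the 0.397% of all citrine cells with a Wif1 UMI, so these cells set no background level for a single Wif1 UMI. Members with 1 Wif1 UMI are described separately below.

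The genes of the rule are given as a description. For the test units with at least 10 members, values are listed throughout in the order the tdTomato pool, citrine heart 1, citrine heart 3 and PDGFRa heart 3, in CPM (counts of UMIs scaled to a common total of 1000000 in each summed class). Wif1 stood at 1449, 1217, 716 and 1123 CPM in members, against 0 in comparison cells by construction. Dkk3 stood at 1494, 1491, 1031 and 1257 CPM in members, against 86.4, 53.4, 40.5 and 31.4 CPM in comparison cells. Prg4 stood at 1314, 1988, 512 and 1936 CPM in members, against 56.8, 93.2, 75.9 and 139.7 CPM in comparison cells. Both were high in members of every unit with no overlap with comparison cells, which the rule favours because these genes chose the cells.

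Comp and Fmod varied more among the members. Comp stood at 1596, 1705, 86.6 and 449 CPM in members, against 62.0, 28.6, 24.9 and 36.7 CPM in comparison cells. Fmod stood at 788, 351, 39.4 and 160.4 CPM in members, against 17.2, 4.19, 3.22 and 7.70 CPM in comparison cells. Citrine heart 3 was the low unit for both. In companion-only cells Comp stood at 599, 204, 231 and 251 CPM, so members of citrine heart 3 were below the companion-only cells of their own heart. Cytl1 stood at 1379.6, 1097, 559 and 749 CPM in members, 1681, 522, 476 and 386 CPM in companion-only cells and 189.8, 67.0, 50.5 and 52.5 CPM in comparison cells, so the tdTomato members were below the companion-only cells of their own library. Of the mural markers, Rgs5 was at 122, 120.0, 86.6 and 134 CPM in members, against 36.5, 2.37, 2.35 and 0.890 CPM in comparison cells, whose choice limits that gene.

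Just inside the rule, 14, 13 and 12 Wif1-positive cells of the tdTomato, citrine and PDGFRa libraries had exactly 2 companion genes, with Wif1 at 1839, 637 and 327 CPM. Just outside it, 13, 8 and 9 cells had exactly 1 companion gene, with Wif1 at 1390.4, 689 and 1044 CPM. Members with 1, 2 to 4, and 5 or more Wif1 UMIs numbered 15, 17 and 23 in the tdTomato library, 12, 8 and 12 in the citrine library and 11, 9 and 12 in the PDGFRa library. To read the levels in molecules the rule had not used, the UMIs of each cell were split at random and members were chosen in one part of them only. In the other part Wif1 stood at 1564, 949 and 1001 CPM in the members of the tdTomato, citrine and PDGFRa libraries, against 4.31, 0.276 and 0.232 CPM in comparison cells. Dkk3 stood at 1531, 1796 and 1185 CPM in members, against 93.3, 48.2 and 57.9 CPM in comparison cells.

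**Figure D2:**
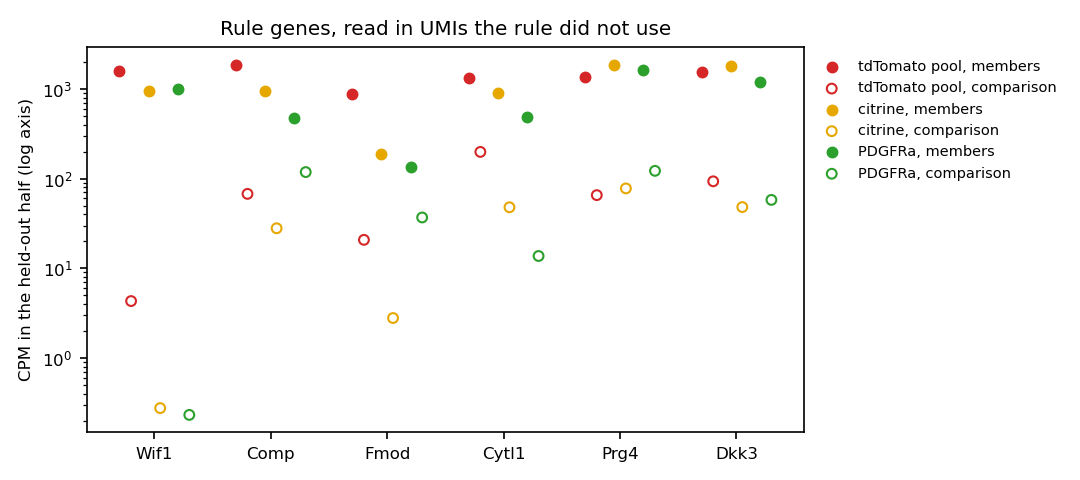
CPM (vertical log axis) of Wif1 and the 5 companion genes in UMIs held out from the choice of members, mean of 20 random splits, for members (filled) and comparison cells (open) of 3 libraries. Every filled point lies above the open point of its library, with Comp and Fmod closest in the PDGFRa library (469 and 135 CPM in members, against 118 and 36.9 CPM in comparison cells).

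The members carried fibroblast markers. The 8 fibroblast identity genes summed to 46975 to 81753 CPM in members, against 54016 to 84177 CPM in comparison cells. Gsn and Dcn carried most of the sum, at 42780 and 31792 CPM of 81753 CPM in the tdTomato members. Of the 8 genes, 5 were lower in members (Pdgfra, Col1a2, Col3a1, Tcf21 and Gsn), 1 was higher (Lum) and 2 did not pass (list median -0.43). The proteoglycan decorin (Dcn) stood at 31792, 23179, 20216 and 24254 CPM in members, against 26535, 21461, 20032 and 21073 CPM in comparison cells (log2 fold change 0.08 ± 0.09, SE; adjusted p = 0.73, edgeR quasi-likelihood test with Benjamini-Hochberg adjustment). Pdgfra, the fibroblast receptor for PDGF, was lower, at 102, 111, 236 and 58.8 CPM in members, against 284, 375, 365 and 206 CPM in comparison cells (log2 fold change -1.41 ± 0.19, adjusted p = 2.6e-12), in all 4 units although the ranges overlap.

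Immune, Schwann cell and epicardial markers were at 0 in the 4 units, while smooth muscle and cardiomyocyte markers were not. The 7 macrophage and monocyte, 6 lymphocyte, 4 Schwann cell and 6 epicardial markers each summed to 0 CPM in members of all 4 units, against 4.01 to 11.7, 0 to 0.342, 1.48 to 2.52 and 1.60 to 17.9 CPM in comparison cells. Outside these units, PDGFRa members held 6 UMIs of Wt1 and 8 of Upk3b, both epicardial. The 6 endothelial markers summed to 16.3 to 70.9 CPM in members, against 24.7 to 140.4 CPM in comparison cells. The 8 pericyte markers summed to 204 to 229.9 CPM in members, against 196 to 327 CPM in comparison cells, and the 6 smooth muscle markers to 182 to 343 CPM in members, against 94.1 to 166 CPM in comparison cells. Of the 4 smooth muscle genes tested, 3 rose (Acta2, Tagln and Lmod1), with log2 fold changes of 0.74, 1.06 and 2.78, while Myh11 was at 0 in all members. Cells with at least 2 mural markers were left out of comparison cells but not of members, with 1 in the tdTomato and 3 in the citrine members. In companion-only cells the 6 smooth muscle markers summed to 141 to 620 CPM, and the list median of members against these cells was -0.53. The part of smooth muscle genes in the results below was not tested. The 6 cardiomyocyte markers summed to 10.7 to 129 CPM in members, against 10.2 to 26.8 CPM in comparison cells; of these only Tnnt2 (troponin T) had enough counts to be tested, and it rose (log2 fold change 2.68 ± 0.47, adjusted p = 4.8e-07, edgeR) on 27 member UMIs.

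A cartilage identity was carried by only some of its genes. Col2a1, Matn1 and Matn3, which mark cartilage matrix, were at 0 UMIs in all 119 members, and Acan (aggrecan) had 1 UMI. Sox9, the master regulator of chondrocytes, stood at 208, 197, 339 and 219 CPM in members, against 135, 195, 189.9 and 162 CPM in comparison cells, which did not pass the test (log2 fold change 0.44 ± 0.17, adjusted p = 0.074, edgeR). Chad (chondroadherin, a leucine-rich cartilage protein) had 88 UMIs in members, or 89.8, 139.9 and 25.0 CPM in the tdTomato, citrine and PDGFRa libraries, against 1.37, 0.361 and 0.167 CPM in comparison cells, but was left out of the test by the filter on low counts. Hapln1, which links hyaluronan to proteoglycans, had 14 UMIs and stood at 16.3, 19.3 and 6.26 CPM in members, against 0.228, 0.127 and 0.0167 CPM in comparison cells. The collagen chain gene Col9a1 had 15 UMIs, at 36.7, 9.65 and 6.26 CPM in members, against 0.913, 0.0318 and 0.284 CPM in comparison cells. With Col2a1, Matn1, Matn3 and Acan at 0 or 1 UMI, the cells are called Wif1-positive fibroblasts here.

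The comparison of members with comparison cells asked which genes outside the rule differed in the same hearts. Members held more Rspo3, Ucma, Scx and Clu and less Cxcl14, Lamb1, Dpep1 and Smoc2 than comparison cells. Of 10933 genes tested, 432 were higher in members (3.95%) and 701 were lower (6.41%) at an adjusted p below 0.05, 10.4% in all (edgeR quasi-likelihood test on UMIs summed per unit and class, with the unit as a block). The members of the 4 units held 98 cells and 675739 UMIs. With no block for the unit, 394 genes were called, all of them among the 1133. At 12% of the tested genes, the values of the 4 units did not overlap between the classes. The split moved with the scaling: 505 higher and 551 lower with DESeq2 size factors in edgeR, and 369 higher and 298 lower with DESeq2. The median log2 fold change over all tested genes was -0.15, and it moved by 0.11 with DESeq2 size factors, so the list medians below are read against it.

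The 15 genes named for the largest rises were Prss35, Pdzrn4, Rspo3, Cyp26a1, Ucma, Scx, Rapgef4, 1500015O10Rik, Cadm1, Clu, S100b, Aqp1, Lmcd1, Atp1b1 and Cyp2e1. Genes were named only if all 4 units moved in 1 direction, so that agreement was set by the choice. Rspo3, a secreted R-spondin that strengthens Wnt signalling by protecting Frizzled receptors, stood at 265, 180.0, 118 and 192 CPM in members, against 6.62, 0.707, 0.869 and 1.78 CPM in comparison cells. All 4 units were high in members, with no overlap, and the fold change was 89.7 (log2 6.49 ± 0.33, adjusted p = 5.2e-83). Prss35, which encodes a protein related to serine proteases, stood at 28.6, 206, 102 and 58.8 CPM in members, against 1.83, 0.252, 0.0724 and 0.509 CPM in comparison cells (log2 fold change 7.39 ± 0.54, adjusted p = 1.1e-39). Pdzrn4, which encodes a protein with RING finger and PDZ domains, stood at 65.3, 68.6, 31.5 and 58.8 CPM in members, against 0.799, 0.101, 0.253 and 0.763 CPM in comparison cells (log2 fold change 6.87 ± 0.59, adjusted p = 1.4e-28). These adjusted p-values, and those below, are from edgeR.

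Secreted and matrix-linked genes were among the strongest. Ucma, a cartilage matrix protein that binds calcium, stood at 89.8, 394, 31.5 and 139 CPM in members, against 5.25, 0.707, 1.05 and 1.78 CPM in comparison cells (log2 fold change 6.10 ± 0.42, adjusted p = 3.4e-45). 1500015O10Rik, known as Ecrg4 or augurin, a secreted peptide precursor, stood at 1510.2, 2545, 142 and 765 CPM in members, against 52.6, 10.6, 9.49 and 27.4 CPM in comparison cells (log2 fold change 5.40 ± 0.17). It was highest in citrine heart 1 and lowest in citrine heart 3, and no unit overlapped. Clu (clusterin), a secreted chaperone, stood at 273, 711, 386 and 229.9 CPM in members, against 14.8, 14.6, 15.5 and 9.86 CPM in comparison cells (log2 fold change 4.71 ± 0.18). Cyp26a1, which breaks down retinoic acid, stood at 143, 51.4, 7.87 and 10.7 CPM in members, against 0.456, 0.252, 0.760 and 0.763 CPM in comparison cells, and the lowest 2 member units rested on 1 and 2 UMIs.

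The cell surface and channel genes of this group moved by similar sizes. Aqp1, a water channel, stood at 131, 77.1, 39.4 and 90.9 CPM in members, against 11.5, 3.23, 2.79 and 0.763 CPM in comparison cells (log2 fold change 4.46 ± 0.41). Atp1b1, the beta subunit of the sodium-potassium pump, stood at 65.3, 231, 189 and 214 CPM in members, against 7.76, 9.99, 6.59 and 7.70 CPM in comparison cells (log2 fold change 4.32 ± 0.26). Cadm1, a cell adhesion molecule, stood at 278, 42.8, 63.0 and 80.2 CPM in members, against 10.3, 0.606, 1.05 and 1.78 CPM in comparison cells (log2 fold change 5.28 ± 0.42). Cadm1 was highest in the tdTomato pool and Atp1b1 lowest there, and neither gene overlapped between the classes. S100b, a calcium-binding protein, Lmcd1, a LIM domain protein, Rapgef4, an exchange factor driven by cyclic AMP, and Cyp2e1, a cytochrome P450, had log2 fold changes of 4.62, 4.37, 5.82 and 4.04.

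The 10 genes named for the largest falls were Ccl11, Slco2b1, 6030408B16Rik, Cxcl14, Lamb1, Ccl7, Scara5, Spon2, Srpx and Pcdh19. Ccl11 (eotaxin, a chemokine for eosinophils) was at 0 UMIs in members of all 4 units, against 72.9, 55.2, 39.2 and 301 CPM in comparison cells, which makes it at least 26.3-fold lower by a floor of 3 counts over these members, or at least 9.08-fold without PDGFRa heart 3. A citrine member outside these units held 1 UMI of it. Cxcl14, a chemokine, stood at 4.08, 51.4, 86.6 and 21.4 CPM in members, against 106, 490.2, 475 and 762 CPM in comparison cells (log2 fold change -3.71 ± 0.24, adjusted p = 1.6e-50). Lamb1, a laminin chain of basement membranes, stood at 20.4, 17.1, 39.4 and 42.8 CPM in members, against 236, 369, 404 and 465 CPM in comparison cells (log2 fold change -3.65 ± 0.25, adjusted p = 4.6e-47). Every member unit was low for these 3 genes, which the naming required. Slco2b1, an organic anion transporter, had 1 UMI in the members of the 4 units, a pooled ratio to comparison cells of 0.0305 with an exact 95% interval of 0.000772 to 0.170 for counting error. Scara5, a ferritin receptor, and Spon2, a secreted matrix protein, had log2 fold changes of -3.41 and -3.39, and the 4 units of the 2 classes did not overlap for any of the 25 named genes.

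**Figure D3:**
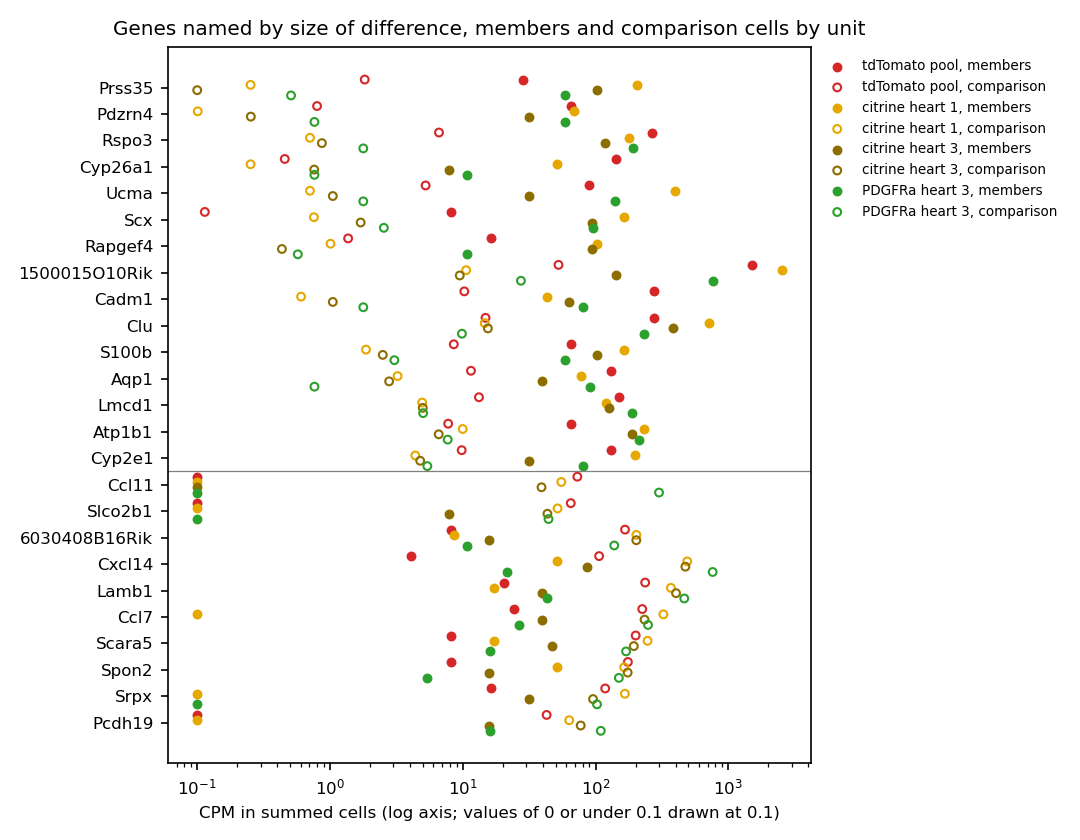
CPM (horizontal log axis) of the 25 genes named by size of difference, for members (filled) and comparison cells (open) of the 4 units in 4 colours. Above the line, members lie right of all comparison cells, and below it, left of all comparison cells, with Ccl11 at 0 in every member unit.

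Several Wnt modulators and targets differed from comparison cells, while few ligands and receptors did. Of 18 secreted Wnt inhibitors and R-spondins, 2 belong to the rule and 7 could be tested: Rspo3 and Frzb rose, Sfrp1, Sfrp2 and Igfbp4 fell and 2 did not pass, with a list median of -1.06 against -0.15 over all tested genes. Frzb (sFRP3), a decoy for Wnt ligands best known from cartilage, stood at 579.6, 120.0, 78.7 and 198 CPM in members, against 96.3, 53.5, 61.3 and 72.2 CPM in comparison cells (log2 fold change 1.63 ± 0.18, adjusted p = 1.1e-17). It was highest in the tdTomato pool and overlapped across units. Sfrp1, another secreted Wnt decoy, stood at 49.0, 111, 94.5 and 80.2 CPM in members, against 115, 197, 158 and 273 CPM in comparison cells (log2 fold change -1.25 ± 0.21, adjusted p = 1.2e-07).

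Of 27 Wnt ligands and receptors, 17 were tested, and 1 rose and 1 fell (list median 0.13), a share near the 10.4% called over all tested genes. Wnt5a, a ligand that acts mostly without beta-catenin, stood at 28.6, 103, 47.2 and 64.2 CPM in members, against 14.8, 15.3, 14.4 and 18.1 CPM in comparison cells (log2 fold change 1.77 ± 0.34, adjusted p = 4.3e-06). The receptor Fzd4 stood at 0, 8.57, 15.7 and 10.7 CPM in members, against 30.2, 55.5, 47.9 and 41.4 CPM in comparison cells (log2 fold change -2.53 ± 0.50, adjusted p = 1.2e-05). Of 14 Wnt target genes, 9 were tested, 4 rose and 1, Myc, fell (list median 0.57). Against companion-only cells the median of the Wnt target list was 0.08, so the size of its shift depended on the cells used as reference. Tnfrsf19, a receptor of the TNF family, stood at 16.3, 25.7, 39.4 and 32.1 CPM in members, against 0.342, 0.0505, 0.109 and 0.127 CPM in comparison cells (log2 fold change 7.49 ± 0.82, adjusted p = 5.9e-18), on 18 member UMIs in all. Axin2, a feedback inhibitor of beta-catenin, stood at 12.2, 17.1, 7.87 and 26.7 CPM in members, against 2.74, 2.62, 3.58 and 3.56 CPM in comparison cells (log2 fold change 2.31 ± 0.68, adjusted p = 0.01), on 11 member UMIs. Nkd1 and Bambi rose by 2.82 and 1.80 on the log2 scale, with Nkd1 at 0 in the tdTomato members.

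Of 25 mesenchymal transcription factors tested, 9 rose and 4 fell (list median 0.07). Scx (scleraxis), the transcription factor of tendon progenitors, stood at 8.16, 163, 94.5 and 96.2 CPM in members, against 0.114, 0.757, 1.70 and 2.54 CPM in comparison cells (log2 fold change 6.09 ± 0.50, adjusted p = 7.5e-32). The tdTomato members were the low unit, with 2 UMIs. Tbx20, a T-box factor of heart and valve development, stood at 559, 591, 575 and 406 CPM in members, against 157, 204, 175 and 149 CPM in comparison cells (log2 fold change 1.57 ± 0.15, adjusted p = 6.2e-24), with no overlap. The other factors that rose were Gata4, Gata6, Hand2, Meox1, Twist1, Runx1 and Zfhx4, which act in heart and mesenchyme development. Osr1 stood at 16.3, 8.57, 31.5 and 16.0 CPM in members, against 106, 76.8, 56.0 and 64.4 CPM in comparison cells (log2 fold change -2.21 ± 0.35). Tcf21, which marks resident cardiac fibroblasts, stood at 106, 274, 315 and 225 CPM in members, against 239, 591, 545 and 442 CPM in comparison cells (log2 fold change -1.07 ± 0.16, adjusted p = 1.6e-09). Hic1, a repressor that defines 3 of the 4 sorts, stood at 0, 111, 165 and 26.7 CPM in members, against 21.0, 320.4, 308 and 38.9 CPM in comparison cells (log2 fold change -1.30 ± 0.25, adjusted p = 3.8e-06).

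The tdTomato sequence stood at 1453, 51.4, 23.6 and 0 CPM in members, against 1284, 4.64, 5.58 and 0 CPM in comparison cells (log2 fold change 0.55 ± 0.25, adjusted p = 0.18, edgeR). It was high in both classes of the tdTomato pool.

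Several growth factors and BMP pathway genes rose. Of 22 angiopoietin-like and angiogenic factors and growth factor genes tested, 8 rose and 2 fell (list median 0.21). Pdgfa, a ligand of PDGFRa, stood at 93.9, 120.0, 110.2 and 187 CPM in members, against 11.9, 13.4, 8.40 and 12.0 CPM in comparison cells (log2 fold change 3.41 ± 0.27, adjusted p = 9.8e-35). Ptn (pleiotrophin), a heparin-binding growth factor, stood at 657, 471, 709 and 711 CPM in members, against 130.0, 27.1, 31.5 and 172 CPM in comparison cells (log2 fold change 3.08 ± 0.16, adjusted p = 5.2e-83). Neither overlapped between the classes. Its relative Mdk (midkine) and Igfbp5, which binds insulin-like growth factors, rose by 2.60 and 2.56 on the log2 scale. Of 15 BMP genes tested, Chrdl1, Id1, Id3 and Id4 rose and Chrd and Fstl1 fell (list median 0.43). Id4, a BMP target that blocks basic helix-loop-helix factors, stood at 16.3, 231, 78.7 and 16.0 CPM in members, against 3.99, 4.89, 3.69 and 2.93 CPM in comparison cells (log2 fold change 3.96 ± 0.45). The BMP antagonist Chrdl1 stood at 89.8, 17.1, 0 and 5.35 CPM in members, against 3.54, 1.31, 0.978 and 1.97 CPM in comparison cells, and overlapped. Of 15 TGF-beta genes tested, 3 rose and 4 fell (list median 0.15).

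Matrix genes split by kind. Of 10 chondrocyte genes tested, Ucma, Col11a1, Sox6, Epyc and Matn4 rose and Lect1 fell (list median 1.53). Against companion-only cells the list median was 0.49. Summed over 21 chondrocyte genes, members stood at 1041, 1422, 464 and 807 CPM, against 969, 951, 813 and 1248 CPM in companion-only cells. Comparison cells stood at 341, 382, 364 and 443 CPM. Companion-only cells were thus above members in citrine heart 3 and PDGFRa heart 3. Sox6, which acts with Sox9 in cartilage, stood at 40.8, 25.7, 15.7 and 37.4 CPM in members, against 5.93, 5.65, 4.53 and 3.24 CPM in comparison cells (log2 fold change 2.64 ± 0.52, adjusted p = 1.1e-05), with no overlap. Epyc (epiphycan), a small cartilage proteoglycan, stood at 73.5, 25.7, 0 and 102 CPM in members, against 30.8, 3.13, 1.74 and 5.85 CPM in comparison cells (log2 fold change 2.44 ± 0.40), at 0 in citrine heart 3. Of 5 tendon and ligament genes tested, Scx and Thbs4 rose and Egr2 and Tnxb fell. Thbs4 stood at 122, 85.7, 0 and 0 CPM in members, against 13.1, 15.9, 16.3 and 27.5 CPM in comparison cells, so that its rise (log2 fold change 1.58 ± 0.32) came from the tdTomato pool and citrine heart 1. The keratan sulphate proteoglycan gene Kera had 9 UMIs in members, all in the tdTomato library, and was not tested.

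Of 19 collagen genes tested, 12 fell and 3 rose (list median -1.0). The basement membrane chain Col4a1 stood at 28.6, 171, 205 and 118 CPM in members, against 272, 641, 731 and 654 CPM in comparison cells (log2 fold change -2.33 ± 0.18, adjusted p = 6.5e-36), and its partner Col4a2 fell by 2.34 on the log2 scale. The fibrillar collagen Col3a1 stood at 878, 2022, 905 and 1433 CPM in members, against 2011, 2515, 2418 and 2765 CPM in comparison cells (log2 fold change -1.03 ± 0.12). Col1a1 did not pass (log2 fold change -0.29 ± 0.13, adjusted p = 0.15). Those that rose were Col11a1, Col8a2 and Col12a1, with log2 fold changes of 4.10, 2.81 and 1.42. Col11a1 stood at 24.5, 68.6, 0 and 10.7 CPM in members, against 1.94, 0.505, 0.434 and 2.48 CPM in comparison cells. Its member UMIs numbered 6, 8, 0 and 2. Over the whole PDGFRa library Col11a1 stood at 6.26 CPM in members, against 26.3 CPM in comparison cells. Mgp, which holds back calcification, was among the most abundant genes of the cells, at 27262, 29915, 15304 and 33381 CPM in members, against 7281, 7509.8, 5098 and 8082 CPM in comparison cells (log2 fold change 1.81 ± 0.09, adjusted p = 5.7e-78). Prelp, a small leucine-rich proteoglycan, stood at 1686, 1525, 827 and 1091 CPM in members, against 451, 418, 524 and 377 CPM in comparison cells (log2 fold change 1.45 ± 0.13), while Podn of the same family fell by 2.58.

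Fibroblast activation genes were mixed. Of 17 tested, 8 rose and 4 fell (list median 0.48). Against companion-only cells the list median was -0.83, so the direction depended on the cells used as reference. Postn (periostin), a matricellular protein of activated fibroblasts and valves, stood at 1004, 668, 614 and 513 CPM in members, against 166, 234, 279 and 288 CPM in comparison cells (log2 fold change 1.48 ± 0.14, adjusted p = 1.1e-22). Fn1 (fibronectin) stood at 16.3, 94.3, 23.6 and 16.0 CPM in members, against 80.4, 106, 114 and 168 CPM in comparison cells (log2 fold change -1.91 ± 0.28), and Lox, which crosslinks collagen, fell by 2.22. Of 17 thrombospondins and matricellular genes tested, 4 rose (Thbs1, Thbs4, Smoc1 and Postn) and 10 fell (list median -1.02).

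Genes of resting cardiac fibroblasts were low in the members. Of 14, 13 fell and 1, Apoe, rose (list median -2.03). Dpep1, a membrane dipeptidase, stood at 65.3, 68.6, 197 and 229.9 CPM in members, against 1309, 1327, 1203 and 1017 CPM in comparison cells (log2 fold change -3.22 ± 0.16, adjusted p = 3.4e-81). Smoc2, a calcium-binding matrix protein, stood at 89.8, 137, 173 and 289 CPM in members, against 1424, 750.2, 958 and 1177 CPM in comparison cells (log2 fold change -2.77 ± 0.16, adjusted p = 2.9e-62). Neither overlapped. Apoe, the lipid carrier apolipoprotein E, stood at 12645, 6787, 10321 and 12084 CPM in members, against 7271, 4394, 3013 and 3802 CPM in comparison cells (log2 fold change 1.15 ± 0.10). Of 13 genes of Sca1-high progenitors, 11 fell and 0 rose (list median -1.49), with Pi16, a marker of adventitial fibroblasts, at 196, 471, 874 and 203 CPM in members, against 1320.3, 1559, 1849 and 921 CPM in comparison cells. The gene of Sca1 itself, Ly6a, stood at 212, 574, 905 and 74.9 CPM in members, against 742, 1161, 1223 and 606 CPM in comparison cells (log2 fold change -1.45 ± 0.15); reads may be shared with other Ly6 genes.

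Immune signalling genes were also low. Of 14 chemokines and cytokines tested, 9 fell and 0 rose (list median -2.0, or -1.30 with the 3 genes at 0 UMIs in the members of the 4 units, Ccl8, Ccl11 and Cxcl2, set at their bounds). Members outside these units held 1 UMI of Ccl8, 1 of Ccl11 and 12 of Cxcl2. Ccl2, a chemokine for monocytes, stood at 81.6, 0, 7.87 and 16.0 CPM in members, against 151, 365, 359 and 210.3 CPM in comparison cells (log2 fold change -2.88 ± 0.25, adjusted p = 2.2e-29), and the related Ccl7 at 24.5, 0, 39.4 and 26.7 CPM in members, against 225, 324, 234 and 248 CPM in comparison cells. Of 9 complement genes tested, 5 fell and 0 rose (list median -1.35). C1s1, a protease of the C1 complex, stood at 0, 42.8, 31.5 and 42.8 CPM in members, against 174, 193, 164 and 167 CPM in comparison cells (log2 fold change -2.82 ± 0.28, adjusted p = 3.0e-22). C3, the central complement protein, stood at 32.7, 308, 268 and 262 CPM in members, against 492, 1120.4, 802 and 739 CPM in comparison cells (log2 fold change -2.07 ± 0.16). Immediate early and heat shock genes, which cell dissociation can raise, fell in 11 of 19 and rose in 1 (list median -0.58); their part in these differences was not tested.

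**Figure D4:**
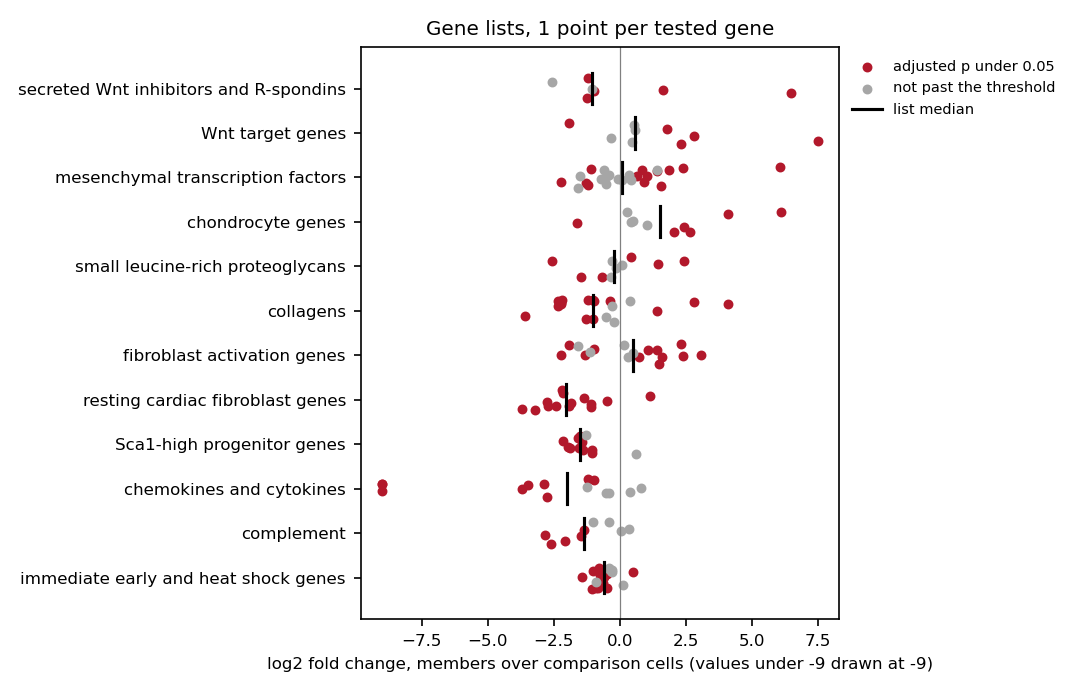
Log2 fold changes of members over comparison cells (horizontal axis) for each tested gene of 12 gene lists, with genes past an adjusted p of 0.05 in red, others in grey and the list median as a black bar. Resting fibroblast, Sca1-high progenitor, chemokine and complement genes lie mostly left of 0, and the chondrocyte list has its median at 1.53.

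The second comparison set members against companion-only cells, which share the companion genes and lack Wif1. Of 6103 genes tested, 190 were higher (3.11%) and 267 lower (4.37%), 7.49% in all, and the units did not overlap for 7.73%. The count fell to 253 without PDGFRa heart 3, 279 with DESeq2 and 83 with no block for the unit. The 8 genes named for the largest rises were Prss35, Rspo3, Pdzrn4, Ucma, Cadm1, Atp1b1, Mrap and Aqp1, with log2 fold changes of 6.01, 5.27, 5.08, 4.39, 3.43, 3.25, 3.22 and 3.21. Rspo3 stood at 265, 180.0, 118 and 192 CPM in members, against 26.0, 1.63, 1.49 and 1.52 CPM in companion-only cells (SE 0.420, adjusted p = 3.1e-08, edgeR). Mrap, an accessory protein of melanocortin receptors, stood at 40.8, 51.4, 78.7 and 32.1 CPM in members, against 9.89, 3.26, 4.47 and 5.59 CPM in companion-only cells (adjusted p = 6.5e-05, edgeR). Members were high in all 4 units for both, which the naming required. Scx did not enter this test.

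The 8 named for the largest falls were Cthrc1, Srpx, Col8a1, Cst6, Lbh, Spon2, 6030408B16Rik and Hmcn2. Col8a1, a short-chain collagen, stood at 57.1, 51.4, 142 and 128 CPM in members, against 613, 738, 862 and 835 CPM in companion-only cells (log2 fold change -2.97 ± 0.20, adjusted p = 3.2e-09, edgeR). Cst6, a cysteine protease inhibitor, stood at 49.0, 17.1, 0 and 10.7 CPM in members, against 242, 174, 130.4 and 113 CPM in companion-only cells (log2 fold change -2.86 ± 0.31, adjusted p = 2.2e-06, edgeR). Cthrc1, a secreted protein of activated fibroblasts, stood at 12.2, 0, 0 and 21.4 CPM in members, against 21.0, 8.15, 54.4 and 403 CPM in companion-only cells, and overlapped across units (adjusted p = 1.5e-05 with edgeR and 0.165 with DESeq2). Of the 16 genes named here, 14 did not overlap; Cthrc1 and Hmcn2 did.

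The 2 comparisons share the member cells. Against companion-only cells, resting cardiac fibroblast genes fell in 10 of 14 and rose in 1 (list median -0.78, against 0.00 over all tested genes), Sca1-high progenitor genes fell in 11 of 12 (list median -1.28) and collagens fell in 10 of 17 with 0 rising (list median -0.71). Of 17 growth factor genes tested, 7 rose and 1 fell (list median 0.65). Pdgfa stood at 93.9, 120.0, 110.2 and 187 CPM in members, against 43.3, 39.1, 30.9 and 30.0 CPM in companion-only cells (log2 fold change 1.93 ± 0.25, adjusted p = 1.9e-05, edgeR). Tbx20, Hand2, Twist1 and Zfhx4 rose and Tcf21, Osr1 and Klf4 fell among 19 transcription factors. Postn stood at 1004, 668, 614 and 513 CPM in members, against 622, 1019.8, 1269 and 1462 CPM in companion-only cells, and did not pass (log2 fold change -0.53 ± 0.23, adjusted p = 0.2, edgeR). Of 6 chondrocyte genes tested, Ucma rose and Cilp fell.

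An interaction term was fitted for another size of the difference between members and comparison cells in citrine than in PDGFRa hearts. Among hearts with at least 10 members there were 2 citrine hearts and 1 PDGFRa heart, which left 1 residual degree of freedom. The 0 of 11535 genes called by edgeR (230 at an unadjusted p below 0.05) therefore says nothing on whether the sizes differ. With all 7 hashed hearts, chosen as an alternative after seeing the data, 19 genes were called, which are given in the closing section.

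Members differed among themselves. The 15 genes named above for the largest rises were counted per cell as a description, since they were chosen on these cells. A median of 4 of them was detected in members of the tdTomato library, 7 in the citrine library and 4.5 in the PDGFRa library, with ranges of 0 to 9, 0 to 11 and 1 to 11, against a median of 0 in comparison cells of each. Summed over members with 1, 2 to 4, and 5 or more Wif1 UMIs, the 15 genes came to 2535, 3184 and 3668 CPM in the tdTomato library, 784, 2335 and 4033 CPM in the citrine library and 1368, 3185 and 2076 CPM in the PDGFRa library. Citrine members with a single Wif1 UMI stood lowest, with a median of 2 of the 15 genes and 3 of 12 cells with none of them. In the PDGFRa library the order was not kept, the middle class being the highest.

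**Figure D5:**
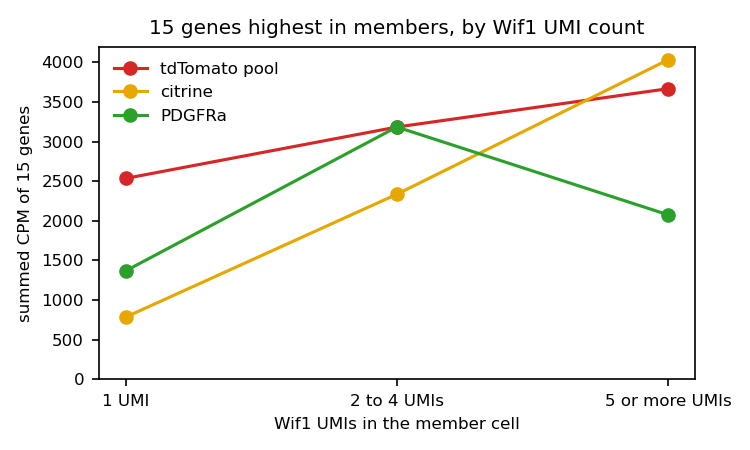
Summed CPM of the 15 genes named for the largest rises (vertical axis) in members with 1, 2 to 4, or 5 or more Wif1 UMIs, 1 line per library. Citrine members stand at 784 CPM with 1 Wif1 UMI and 4033 CPM with 5 or more, while PDGFRa members are highest with 2 to 4.

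In the tdTomato libraries the same genes were read over all kept cells, with 1 library per condition and no replicate check. Cells with at least 2 mural markers were 1226 of 4263 kept cells in ligated hearts, against 350 of 2786 in undamaged hearts, so ratios are also given within comparison cells, which leave them out and hold no members. Wif1 had 0 UMIs in ligated hearts, against 425 UMIs in undamaged hearts, which makes it at least 259-fold lower by a floor of 3 counts. Ratios below are ligated over undamaged hearts, with exact 95% Poisson intervals for counting error. The genes define the members or were chosen as highest in them, and only the undamaged library held members. A lower level over all kept cells is therefore set in part by that choice, and the ratios are a description.

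Cytl1, Prg4, Rspo3 and Aqp1 were lower in ligated hearts in both sets of cells. So were Comp, Dkk3, Ucma, Cadm1, Clu, S100b, Lmcd1, Cyp2e1 and Prss35. Pdzrn4 and Rapgef4 were lower over all kept cells, with intervals that included 1 within comparison cells. Cytl1 was at 9.46 CPM in ligated hearts, against 204 CPM in undamaged hearts, over all kept cells, a ratio of 0.0464 (0.0394 to 0.0543), and within comparison cells the ratio was 0.0649 (0.0551 to 0.0761). Prg4 had a ratio of 0.193 (0.168 to 0.220) over all kept cells and 0.363 (0.313 to 0.421) within comparison cells. For Rspo3 the ratio was 0.0848 (0.0501 to 0.136) over all kept cells and 0.219 (0.125 to 0.370) within comparison cells. Aqp1 stood at 0.0734 (0.0422 to 0.121) over all kept cells and 0.0755 (0.0377 to 0.138) within comparison cells, while in companion-only cells its interval included 1, at 0.631 (0.231 to 1.81).

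Fmod, 1500015O10Rik and Cyp26a1 depended on the cells read. Cyp26a1 had a ratio of 0.491 (0.302 to 0.795) over all kept cells. Within comparison cells its ratio was 3.97 (1.37 to 15.7), on 25 UMIs in ligated and 4 UMIs in undamaged hearts. Over all kept cells, Fmod was at 31.6 CPM in ligated hearts, against 35.5 CPM in undamaged hearts, a ratio of 0.890 (0.777 to 1.02). It was higher in ligated hearts within comparison cells, at 1.86 (1.54 to 2.25), and within companion-only cells, at 1.34 (1.08 to 1.65). Companion-only cells were chosen by genes that include Fmod, so the Fmod ratio within them depends in part on that choice. They held a median of 8432 UMIs in ligated hearts, against 4302 UMIs in undamaged hearts. 1500015O10Rik was at 93.0 CPM in ligated hearts, against 88.6 CPM in undamaged hearts, over all kept cells, a ratio of 1.05 (0.966 to 1.14), against 2.06 (1.85 to 2.29) within comparison cells and 1.57 (1.38 to 1.81) within companion-only cells. For Atp1b1 the interval included 1 in each of the 3 sets, with a ratio of 1.04 (0.808 to 1.34) over all kept cells. Scx was higher in ligated hearts, on 31 UMIs in ligated hearts, against 3 UMIs in undamaged hearts, a ratio of 5.65 (1.76 to 28.9).

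Cells with at least 5 of the 15 genes, counted without regard to Wif1, were 4 of 4263 (0.0938%) in the ligated tdTomato library, against 47 of 2786 (1.69%) in the undamaged one. The 15 genes were chosen as highest in members, which the undamaged library supplied and the ligated library did not. That choice favours the undamaged library, so these shares are a description only. Of these 47 cells, 14 had no Wif1 UMI. Among cells without a Wif1 UMI, the share was 0.0938% (exact interval 0.0256% to 0.240%) in ligated hearts, against 0.516% (0.282% to 0.864%) in undamaged hearts. The libraries share no hearts, so differences between hearts and between conditions cannot be told apart. Fewer cells of a kind in the sort and fewer cells of that kind in the heart cannot be told apart either.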

How the data were processed

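Sorted heart cells were read with a 10x 3' kit and aligned by the submitters with Cell Ranger to a modified mm10 genome, per the labels' protocols. The header of the citrine and PDGFRa files names Cell Ranger 3.0.2, and the submitters' processing notes also name Seurat 2.1. The deposited values are whole-number UMI counts per gene and barcode, with no normalization by the authors in the matrices.

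Barcodes needed at least 500 genes and 1000 UMIs, with mitochondrial genes making up 10% of UMIs or less. A hashtag was assigned where its count was at least 5 and at least 2 times the next. UMIs were summed per heart (or pooled library) and class, for units with at least 10 members, and tested with edgeR 4.0.16 (quasi-likelihood, TMM, filterByExpr, unit as a block, adjusted p below 0.05 by Benjamini-Hochberg). The block pairs classes of the same heart, so the pairing comes from the design. Units are hearts told apart by hashtag, except the tdTomato unit, which pools 3 hearts. Genes named are those called with at least 50 CPM in either class and 1 direction in every unit, the 15 highest and 10 lowest (8 and 8 against companion-only cells), and up to 4 called genes from each of the 36 gene lists; further list genes were chosen after their values were seen. The 10 genes of the rule have no test. The members and lists were chosen with earlier results of these data known. On simulated counts, 57% of 100 genes changed 2-fold and 92% of 100 changed 4-fold were recovered for the comparison with comparison cells (10832 genes, 2 false among 151 calls). The changed genes averaged at least 5 UMIs in the members of a unit, and all genes were given 1 common spread. Recovery of genes with fewer UMIs, and false calls among genes that vary more between hearts, were therefore not tested. Alternatives were DESeq2 1.42.0, its size factors in edgeR, no filter on low counts, no block, other cell and member rules, thinning, matched depth and leaving out each unit.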

Additional observations from a re-analysis of the deposited data

Results flagged for a closer look

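Ccl7 stood apart in 1 of 4 units: the log2 ratio of members over comparison cells was -6.24 in citrine heart 1, against -3.08 to -2.43 in the other 3. The members of that heart held 0 UMIs of Ccl7, so the size is set by the count added before taking logs and is no measure. By a floor of 3 counts in that unit the ratio is -3.66 or lower. Chance flags about 1 in 20 groups in this way.

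With all 7 hashed hearts, an alternative added after seeing the data, the difference between members and comparison cells had another size in citrine than in PDGFRa hearts for 19 of 11176 genes (edgeR interaction term, adjusted p below 0.05; 411 at an unadjusted p below 0.05). Each reporter is 1 library, and only the PDGFRa library held ligated hearts, so reporter, library and condition cannot be told apart. PDGFRa hearts 1 and 2 held 2 members each. Citrine minus PDGFRa, the log2 difference was 1.54 for Postn, 1.83 for Ctgf, 1.90 for Itih5, 2.05 for Mdk, 2.12 for Mgp, 2.21 for Ly6a, 2.42 for Runx1, 2.71 for 1500015O10Rik and 2.79 for Tagln. It was 3.30 for Scx, 3.64 for Ptx3, 4.20 for Ptn, 4.48 for Palld, 4.80 for Ddah1 and 6.52 for Col11a1, and it was negative for Rrad (-4.31) and Tmem100 (-1.85). For Thbs4 (13.86) and Spp1 (17.08) members of all 4 PDGFRa hearts were at 0 UMIs, so these sizes are no measure. Postn in comparison cells stood at 3313 and 3945 CPM in PDGFRa hearts 1 and 2, against 288 and 407 CPM in hearts 3 and 4. Ptn stood at 2213 and 2266 CPM in comparison cells of hearts 1 and 2, against 172 and 252 CPM in hearts 3 and 4. Ly6a went the other way, at 357 and 337 CPM, against 606 and 615 CPM. The part of these shifts in the differences was not tested.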

How the results depend on the processing

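The count of genes differing between members and comparison cells (1133) was 667 with DESeq2, 394 with no replicate block for the unit and 282 with comparison cells matched on UMI total, where only 2453 genes were tested; leaving out each unit gave 789 to 1005. Against companion-only cells (457) it was 279 with DESeq2, 83 with no replicate block and 217 with 3 libraries as units. After thinning it was 231, and with matched totals 201. Leaving out each unit gave 253 to 429. The 253 came without PDGFRa heart 3, which is the same fit as undamaged hearts by label only. The difference between citrine and PDGFRa hearts gave 0 genes by edgeR (230 at an unadjusted p below 0.05) and 19 with all 7 hearts; leaving out a heart could not be fitted there. Shares moved with the rule: 1.44% with at least 2 Wif1 UMIs and 1.47% with at least 3 companion genes in the tdTomato library, 0.185%, 0.175% and 0.0980% (thinned) in the citrine library, and 0.167%, 0.159% and 0.116% in the PDGFRa library. The share after ligation was 0 under all 5 alternatives. No named gene reversed among those each setting could test, which were 10 of 25 against comparison cells and 4 of 16 against companion-only cells with matched totals, 19 and 9 with all 8 units, and at least 23 and 12 elsewhere. Those that lost their call were Ccl11 (adjusted p = 0.05 with no block) and, against companion-only cells, Ucma (0.0581), Cadm1 (0.0757), Cthrc1 (0.408) and Hmcn2 (0.21) with no block, Cthrc1 (0.165) with DESeq2 and Spon2 (0.394) with 3 libraries as units, all by edgeR but the one by DESeq2. Apart from the smaller matched table, the cause was not tested. With 98 members in 4 units, genes at a few UMIs were not detectable.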

Other observations

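Adhesion and mechanical genes also differed. Of 12 integrins tested, Itga10, a collagen receptor best known from cartilage, and Itga8 rose and 4 fell. Itga10 stood at 20.4, 34.3, 15.7 and 32.1 CPM in members, against 0.913, 0.656, 0.507 and 0.700 CPM in comparison cells (log2 fold change 5.09 ± 0.71, adjusted p = 4.4e-11, edgeR). Piezo2, a mechanically gated channel, stood at 16.3, 51.4, 39.4 and 53.5 CPM in members, against 8.44, 4.89, 3.22 and 7.82 CPM in comparison cells (log2 fold change 2.57 ± 0.48), while Cyr61, Amotl2 and Axl of the 10 YAP target genes tested fell.

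Of 19 elastic fibre genes, Mfap2 and Mfap4 rose and 8 fell. Eln (elastin) stood at 77.6, 94.3, 94.5 and 102 CPM in members, against 398, 254, 287 and 222 CPM in comparison cells (log2 fold change -1.74 ± 0.20), and Fbn1 (fibrillin) fell by 1.58 on the log2 scale. Of 19 matrix proteases and inhibitors, 3 rose and 10 fell, with Mmp14, a membrane-bound metalloprotease, at 4.08, 25.7, 70.9 and 42.8 CPM in members, against 79.3, 98.7, 92.5 and 99.5 CPM in comparison cells. The hyaluronan receptor Cd44 stood at 102, 25.7, 31.5 and 74.9 CPM in members, against 12.4, 15.9, 15.5 and 19.2 CPM in comparison cells (log2 fold change 1.99 ± 0.31). Of 13 interferon response genes tested, Ifitm3 fell and 0 rose.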
